A study of Bos taurus with 40 samples.

Results

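The aquaporins are the water channels of cell membranes. The count table of bovine endometrium, the lining of the uterus, was searched for 8 of their genes by symbol, and all 8 were found among its 32671 genes: AQP1, AQP3, AQP4, AQP5, AQP7, AQP8, AQP9 and AQP11. The genes were followed by RNA-seq in 40 libraries from 20 synchronized heifers, with 5 libraries for each horn on each of days 5, 7, 13 and 16. The ipsilateral horn lies next to the ovary with the corpus luteum, the source of progesterone after ovulation, and the contralateral horn is the other. The labels call the days pregnancy days and the design text counts them from estrus; neither says if the heifers carried embryos. No other treatment or genotype is named for any group, and libraries are called by the tag in their titles.

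Water follows salt across an epithelium, and aquaporins set how readily it can pass through the cells. AQP1, AQP4, AQP5 and AQP8 are mainly water channels, while AQP3, AQP7 and AQP9 also carry glycerol and are called aquaglyceroporins. AQP11 is a distant member found largely in membranes inside the cell. In the uterus they are studied for the fluid that fills the lumen before an embryo attaches and for the swelling of the stroma around estrus.

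Library totals lay between 27.03 and 64.36 M assigned reads, with 41.31 M in the second deepest library. Summed markers of epithelium (552 to 1464 CPM, reads of a gene scaled to a common library total) and of stroma (9320 to 38598 CPM) were present in every library. The ipsilateral day 5 library 8-1350 stood apart. In it, 251 of 17257 genes were over 2-fold above every other library, where the next highest such count was 11. Its 5 smooth muscle markers summed to 4518 CPM, against at most 1089 CPM in the other libraries, and its epithelial markers ranked 39 of 40. The ipsilateral day 16 library 5-137 lay at 6.91 on the first principal component, where the other libraries of its group lay between 50.3 and 56.8. Aquaporin calls that were lost or gained without library 8-1350 are given with and without it, as are list counts it moved.

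AQP1 and AQP4 held 97.9% of all reads assigned to the 8 genes, and at least 86.4% in every library. AQP1 had 128052 reads over the 40 libraries and AQP4 134012. AQP5 had 2593 reads, AQP9 1362, AQP11 797 and AQP3 661. AQP7 had 151 reads and AQP8 had 9, and these 2 genes did not pass the filter on low counts, so 6 of the 8 were tested. Levels are compared within a gene only, since gene lengths of the build used for counting were not used here.

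Each of the 6 genes was tested between groups in edgeR, with p-values adjusted over all 20356 genes that passed the filter. The words "rose" and "fell" are used for an adjusted p below 0.05. Over the 4 days, 4 of 6 changed in the ipsilateral horn, where 57.3% of all genes did, and 4 of 6 in the contralateral horn, where 55.2% did. From day 5 to 7, 2 of 6 changed in each horn, against 30.7% of all genes in the ipsilateral and 19.8% in the contralateral horn. From day 7 to 13, 1 of 6 changed in the ipsilateral horn (29.8% of all genes) and 3 of 6 in the contralateral horn (32.9%). From day 13 to 16 edgeR called 0 of 6 in the ipsilateral horn (1.02% of all genes), with 1 of 6 at an unadjusted p under 0.05, and 0 of 6 in the contralateral horn (1.33%), with 0 at that level. DESeq2 and limma-voom also called 0 in both of these comparisons. Days 5 and 16 were compared directly after the values had been seen. There, 2 of 6 changed in the ipsilateral horn (40.4% of all genes) and 4 of 6 in the contralateral horn (42.9%). A share over 6 genes is coarse and nothing is read from it here, so the changes are described gene by gene.

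**Figure D1:**
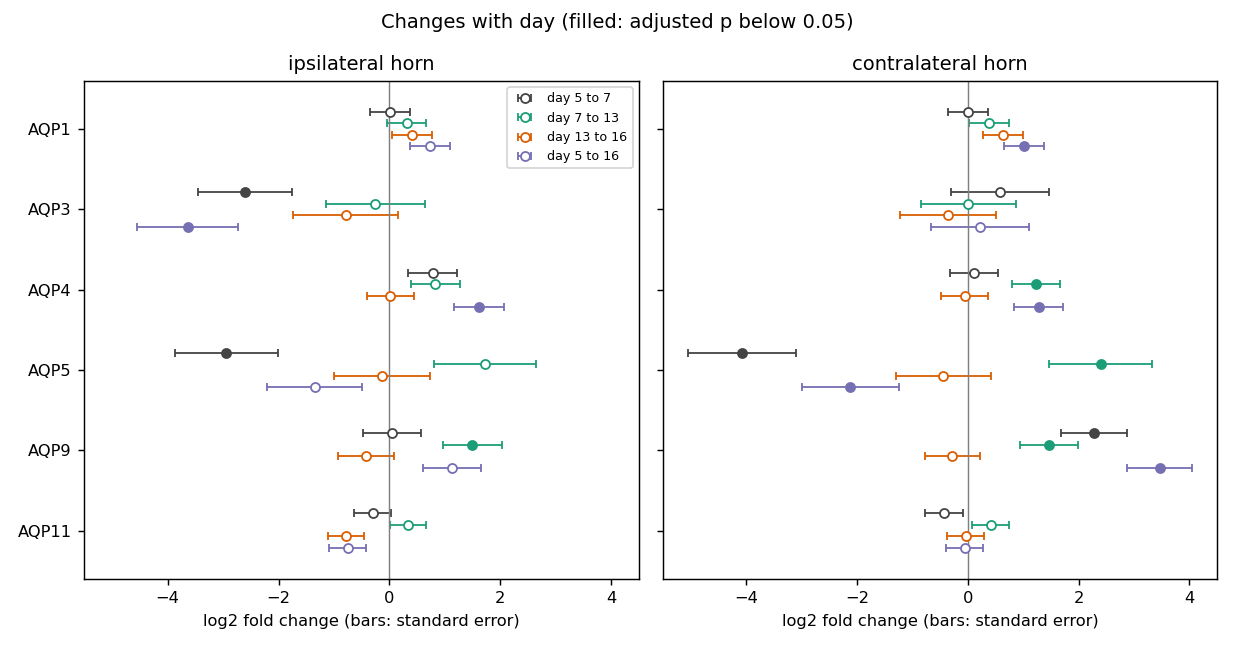
Log2 fold change (horizontal axis) of the 6 tested aquaporins between days, in the ipsilateral (left) and contralateral horn (right). Points are edgeR estimates, bars are standard errors and filled points have an adjusted p below 0.05. AQP5 fell from day 5 to 7 in both horns (log2 fold changes of -2.94 and -4.08), and no point of day 13 to 16 is filled.

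AQP4, a water channel known from the basal side of several epithelia and from the glia of the brain, was higher late than early in both horns. In the ipsilateral horn it stood on day 5 at 20.6, 54.2, 54.4, 60.4 and 64.1 CPM and on day 7 at 63.2, 75.0, 80.6, 106 and 109 CPM. On day 13 it stood there at 60.0, 90.5, 116, 185 and 318 CPM and on day 16 at 84.6, 116, 175, 195 and 208 CPM. All 5 ipsilateral libraries of day 16 lay above all 5 of day 5, while neighbouring days overlapped. Between days 5 and 16 the ipsilateral level rose by a log2 fold change of 1.62 ± 0.45 (SE), or 3.07-fold (adjusted p = 0.00382). None of its ipsilateral steps passed alone: the log2 fold change was 0.78 ± 0.44 from day 5 to 7, 0.83 ± 0.44 from day 7 to 13 and 0.02 ± 0.43 from day 13 to 16. The test over all 4 days gave an adjusted p of 0.00624, and it passed with each library left out in turn (at most 0.0213).

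In the contralateral horn AQP4 stood on day 5 at 21.4, 27, 53.0, 66.2 and 99.6 CPM and on day 7 at 30.5, 51.9, 53.9, 65.7 and 86.3 CPM. On day 13 it stood at 50.4, 58.1, 178, 186 and 204 CPM and on day 16 at 59.2, 81.6, 125, 170 and 213 CPM. The 5 libraries of day 13 fell into 2 near the day 7 level and 3 well above it. The level rose from day 7 to 13 by 1.23 ± 0.44 on the log2 scale, or 2.35-fold (adjusted p = 0.0293), and the test over the 4 days passed with all libraries (adjusted p = 0.00857) and with any 1 left out (at most 0.0192). The day 7 to 13 call was lost without contralateral day 7 library 2-1337, 4-064 or 5-117 or day 13 library 4-1314, 5-140 or 6-203 (adjusted p 0.0543 to 0.0805). From day 5 to 16 the log2 fold change was 1.28 ± 0.44 (2.43-fold, adjusted p = 0.0182), and it missed the threshold without contralateral day 5 library 1-315 or 7-300 or day 16 library 3-155 (0.0522 to 0.0583).

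Epithelial markers moved on the same days. Their sum in the ipsilateral horn was 552 to 836 CPM on day 5 and 852 to 1357 CPM on day 16, and in the contralateral horn 847 to 1215 and 1105 to 1464 CPM. Of the 6 markers, 3 rose and 1 fell from day 5 to 16 in the ipsilateral horn, and 2 rose and 2 fell in the contralateral horn. Of all genes, 40.4% changed between these days in the ipsilateral and 42.9% in the contralateral horn. The part of epithelial cells in the AQP4 values was not tested. In tissue RNA of this kind, a change in the number of cells of a type and a change in RNA per cell cannot be told apart.

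**Figure D2:**
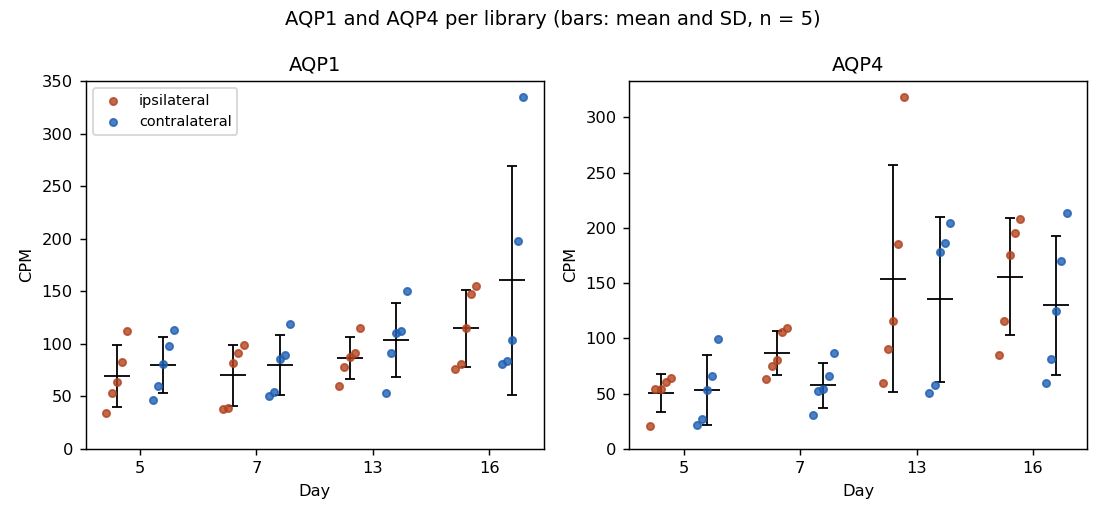
AQP1 (left) and AQP4 (right) in CPM, on a linear axis from 0, by day, with a point for each library, coloured by horn, and bars for the mean and SD (n = 5). The day 16 ipsilateral AQP4 values, 84.6 to 208 CPM, all lie above those of day 5, and a single contralateral day 16 library reaches 335 CPM for AQP1.

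AQP1, the water channel of small blood vessels and red blood cells, was the other abundant member and rose from day 5 to 16 in the contralateral horn, a call that rested on few libraries. In the contralateral horn it stood on day 5 at 46.9, 59.9, 81.1, 97.4 and 113 CPM and on day 7 at 50.4, 53.6, 85.9, 89.2 and 119 CPM. On day 13 it stood at 53.4, 91.6, 110, 112 and 150 CPM and on day 16 at 80.5, 83.6, 104, 198 and 335 CPM. The days overlapped throughout, and 2 libraries of day 16, 8-245 and 7-107, exceeded every other contralateral library. The level rose from day 5 to 16 by 1.01 ± 0.36 on the log2 scale, or 2.01-fold (adjusted p = 0.0236), and the test over the 4 days gave an adjusted p of 0.0383. Without library 7-107 the log2 fold change was 0.55 (adjusted p = 0.213) and the test over the 4 days gave 0.365. Without contralateral day 5 library 3-175 or 1-315 the day 5 to 16 change was 0.87 or 0.92 (adjusted p 0.0707 and 0.0585), and 6 contralateral libraries besides 7-107 (3-175, 1-315 and 4-184 of day 5, 6-338 and 2-1337 of day 7, and 8-245 of day 16) also ended the call over the 4 days when left out (0.0507 to 0.0671).

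In the ipsilateral horn AQP1 stood on day 5 at 34.4, 52.8, 63.4, 82.6 and 112 CPM and on day 7 at 38.2, 38.9, 81.3, 91.3 and 99.1 CPM. On day 13 the values were 59.8, 78.1, 86.9, 90.8 and 115 CPM and on day 16 they were 75.7, 81.1, 115, 147 and 155 CPM. These groups overlapped, and the test over the 4 days did not pass (adjusted p = 0.201). The day 5 to 16 difference was 0.73 ± 0.36 (adjusted p = 0.104), and it was 0.98 (adjusted p = 0.0416) without library 8-1350, which held the highest AQP1 level of its group.

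Markers of blood vessels were also higher late in the series. The 7 markers summed to a median of 554 CPM (467 to 738) on contralateral day 5 and 861 CPM (543 to 918) on day 16. Of the 7, 4 rose and 0 fell between these days, where 42.9% of all genes changed. In the ipsilateral horn the medians were 590 CPM (359 to 607) and 713 CPM (609 to 754). There 2 of the 7 rose and 0 fell, where 40.4% of all genes changed. Nothing is read from counts over so few markers. Contralateral day 16 library 7-107 had the highest sum of its group for the blood vessel markers (918 CPM), for the lymphatic markers (28.7 CPM) and for the red blood cell markers (2.54 CPM). Red blood cell markers summed to 0.452 to 1.02 CPM on contralateral day 5 and 0.977 to 2.54 CPM on day 16, with 2 and 3 of the 7 at 0 in every library of those groups. Of these 7, 2 passed the filter, and both rose from day 5 to 16, with a median log2 fold change of 2.14. The part of these cells in the AQP1 values was not tested.

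AQP5, the channel of the apical membrane in glands such as the salivary and sweat glands, had its highest mean on day 5 and its lowest on day 7 in both horns. On contralateral day 5 it stood at 0.774, 1.73, 2.21, 3.31 and 20.2 CPM, and on day 7 at 0.0692, 0.195, 0.301, 0.414 and 0.657 CPM. On ipsilateral day 5 it stood at 0.472, 1.25, 1.31, 3.41 and 8.68 CPM, and on day 7 at 0.123, 0.198, 0.392, 0.499 and 0.735 CPM. The days did not overlap in the contralateral horn, and in the ipsilateral horn 1 library of day 5 lay within the day 7 range. The contralateral level fell by 4.08 ± 0.97 on the log2 scale, or 16.9-fold (adjusted p = 0.00267). Library 4-184, at 20.2 CPM, set the size of this change: without it the level fell by 2.59 (adjusted p = 0.0361). The ipsilateral level fell by 2.94 ± 0.93 (7.67-fold, adjusted p = 0.0151), and without library 8-1350, at 8.68 CPM, the change was -2.05 (adjusted p = 0.0905).

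After day 7 AQP5 rose in the contralateral horn. On day 13 the contralateral values were 0.363, 0.805, 0.857, 1.07 and 5.68 CPM and the ipsilateral values 0.509, 0.676, 0.832, 1.00 and 3.49 CPM. On day 16 they were 0.239, 0.414, 0.974, 0.977 and 3.86 CPM in the contralateral and 0.343, 0.445, 0.502, 1.55 and 3.12 CPM in the ipsilateral horn. In each of these 4 groups a minority of the libraries lay well above the rest. From day 7 to 13 the level rose in the contralateral horn by 2.40 ± 0.93 (5.27-fold, adjusted p = 0.0448), and the ipsilateral difference was 1.73 ± 0.92 (adjusted p = 0.156). The contralateral call was lost without day 13 library 5-167 (1.26, adjusted p = 0.321) or day 7 library 2-1337, 2-371, 4-064 or 5-117 (0.0643 to 0.0997).

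AQP5 on day 16 lay below day 5 in the contralateral horn, at a log2 fold change of -2.12 ± 0.87 (adjusted p = 0.0460), and the ipsilateral value was -1.35 ± 0.85 (adjusted p = 0.211). The contralateral call was lost without any 1 of 11 libraries. Without day 5 library 4-184 the value was -0.63 (adjusted p = 0.569), and without contralateral day 16 library 3-155, 5-137, 7-107 or 8-245 the adjusted p was 0.0861 to 0.121. The other 6 (contralateral day 13 library 5-140, ipsilateral day 13 libraries 5-167 and 8-275, and ipsilateral day 16 libraries 2-068, 5-137 and 8-245) moved it to between 0.0528 and 0.0558. The test over the 4 days gave an adjusted p of 0.00263 in the contralateral horn (0.0590 without library 4-184) and 0.0430 in the ipsilateral horn. The ipsilateral call was lost without day 5 library 8-1350 or 3-175, day 7 library 6-338, 2-1337, 2-371 or 4-064, or day 16 library 2-068 (0.0501 to 0.216).

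Muscle and stroma markers fell beside AQP5. From day 5 to 7, 5 of 5 smooth muscle markers fell in the ipsilateral horn (median -1.66) and 2 of 5 in the contralateral horn (median -1.31). Without library 8-1350 the ipsilateral count was 3 of 5 (median -1.09). Of the 5 stroma markers, 3 fell in each horn, with medians of -0.68 and -0.61, while 3 of 6 epithelial markers rose and 1 fell in the ipsilateral horn and 2 rose and 1 fell in the contralateral horn. Of all genes, 30.7% changed from day 5 to 7 in the ipsilateral and 19.8% in the contralateral horn. The part of these cell types in the AQP5 values was not tested. AQP6, a channel gene that neighbours AQP5 in the RefSeq annotation of assembly ARS-UCD2.0, had 358 reads in all. It was at most 2.09 CPM on contralateral day 5 and 1.22 CPM on ipsilateral day 5, and at most 0.771 CPM in the other groups. Of the 4 libraries highest in AQP5, 3 were also among the 4 highest in AQP6, including 4-184 and 8-1350. How reads shared by neighbouring genes were counted is not stated by the labels or notes.

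AQP9, an aquaglyceroporin best known from liver and white blood cells, was lowest on day 5 in the contralateral horn and higher there on every later day. On contralateral day 5 it stood at 0.0798, 0.131, 0.142, 0.170 and 0.179 CPM, which was 3 to 6 reads per library. On contralateral day 7 it stood at 0.537, 0.572, 0.651, 0.845 and 0.865 CPM, or 18 to 26 reads. All 5 libraries of day 7 lay above all 5 of day 5. The level rose by 2.28 ± 0.59 on the log2 scale, or 4.86-fold (adjusted p = 0.00551), and passed with each library left out in turn (at most 0.0174).

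Later contralateral values of AQP9 were 0.674, 1.55, 1.65, 2.71 and 2.95 CPM on day 13 and 0.534, 1.10, 1.62, 1.80 and 2.81 CPM on day 16. Each of these 10 values lay above every day 5 value, and both days overlapped with day 7. The level rose again from day 7 to 13, by 1.46 ± 0.52 (2.75-fold, adjusted p = 0.0279), and the difference from day 13 to 16 was -0.28 ± 0.50 (adjusted p = 0.887). From day 5 to 16 the log2 fold change was 3.46 ± 0.59, or 11-fold (adjusted p = 1.27e-05), and the test over the 4 days gave 1.2e-05; both passed with any 1 library left out. The day 7 to 13 call was lost without contralateral day 13 library 8-275 or 5-167 or day 7 library 6-338, 2-1337 or 4-064 (0.0513 to 0.0717).

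The ipsilateral horn began from a mixed level. AQP9 stood on ipsilateral day 5 at 0.106, 0.142, 0.588, 0.915 and 0.941 CPM and on day 7 at 0.494, 0.527, 0.529, 0.537 and 0.713 CPM. On day 13 the values were 0.300, 0.680, 1.73, 2.52 and 2.67 CPM and on day 16 they were 0.353, 0.738, 0.980, 1.72 and 2.13 CPM. On day 5, 2 libraries lay within the contralateral range and 3 lay above it, and the day 7 values fell inside the day 5 range. The level rose from day 7 to 13 by 1.50 ± 0.53 (2.82-fold, adjusted p = 0.0286), with a day 5 to 7 difference of 0.05 ± 0.53 and a day 5 to 16 difference of 1.13 ± 0.52 (adjusted p = 0.0815). The day 7 to 13 call was lost without day 7 library 5-117, 6-338, 2-371 or 4-064 or day 13 library 5-167 or 6-203 (0.0520 to 0.0840), and the call over the 4 days (adjusted p = 0.0184) without either of the last 2 (0.0526 and 0.0522). The day 5 to 16 difference passed without day 5 library 1-315 or 7-300 or day 16 library 7-107 (0.0383 to 0.0485).

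White blood cell markers were followed beside AQP9. The 5 neutrophil markers summed to 2.26 to 8.17 CPM on contralateral day 5 and 2.45 to 6.69 CPM on day 16, and 0 of the 4 tested rose and 1 fell between these days. When AQP9 rose from day 7 to 13, 1 of these 4 rose and 0 fell in each horn (29.8% and 32.9% of all genes changed). Their median log2 fold changes were -0.20 (ipsilateral) and 0.08 (contralateral). The neutrophil sum had a median of 1.61 CPM (0.859 to 2.84) on ipsilateral day 7 and 3.49 CPM (1.32 to 5.44) on day 13. Contralateral medians were 3.53 CPM on day 5, 1.39 CPM (0.993 to 2.42) on day 7 and 6 CPM (1.24 to 8.92) on day 13. The 4 macrophage markers summed to 110 to 163 CPM on contralateral day 5 and 75.7 to 129 CPM on day 16, with 0 risen and 1 fallen. From day 7 to 13, 0 of the 4 changed in either horn. The part of these cells in the AQP9 values was not tested.

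AQP3, the aquaglyceroporin of skin and kidney collecting duct, was called only through library 8-1350. On ipsilateral day 5 it stood at 0.0590, 0.106, 0.314, 0.392 and 8.36 CPM, the last in that library with 315 of the 661 reads of the gene. Every other library of the series lay between 0 and 0.650 CPM, so all groups but this 1 overlapped at a low level. With all libraries the ipsilateral test over the 4 days passed (adjusted p = 0.000803), as did the log2 fold change of -2.60 ± 0.85 from day 5 to 7 (adjusted p = 0.0192) and of -3.64 ± 0.91 from day 5 to 16 (adjusted p = 0.00168). Without library 8-1350 these gave an adjusted p of 0.522, a log2 fold change of 0.42 (adjusted p = 0.672) and one of -0.62 (adjusted p = 0.502). Without ipsilateral day 7 library 6-338 or 4-064 the day 5 to 7 call was also lost (0.0548 and 0.0508). In the contralateral horn the test over the 4 days did not pass (adjusted p = 0.907). The library had the highest sums of smooth muscle (4518 CPM), lymphatic (30.8 CPM) and skeletal muscle markers (7.19 CPM) of the series, and their part in its AQP3 level was not tested. The skeletal muscle sum was mainly TNNT3, at up to 6.93 CPM in the series. ACTA1, CKM and MYH1 were at most 1.12, 0.25 and 0.139 CPM in any library.

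**Figure D3:**
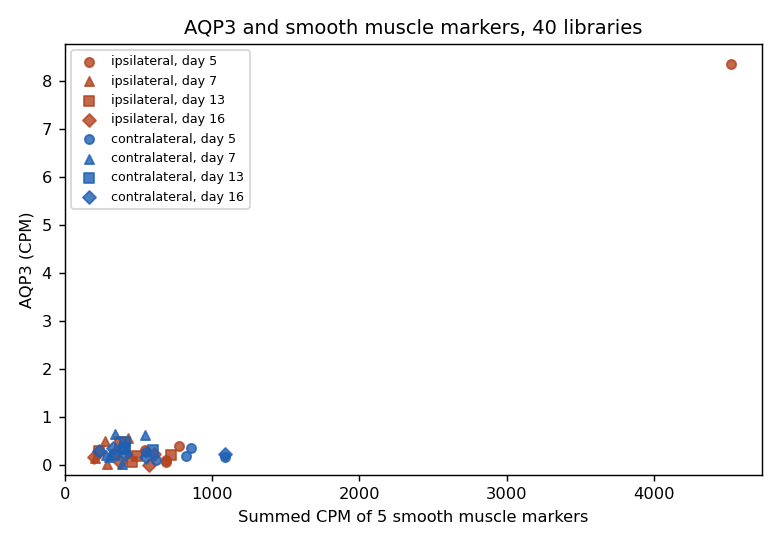
AQP3 in CPM (vertical axis) against the summed CPM of 5 smooth muscle markers (horizontal axis) in the 40 libraries, coloured by horn and shaped by day. The ipsilateral day 5 library 8-1350 lies alone at 4518 and 8.36 CPM, and the others lie at or below 1089 and 0.650 CPM.

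AQP11, the intracellular member, was low and was not called over the days. It ranged from 0.269 to 1.64 CPM over the 40 libraries, or 9 to 51 reads. The test over the 4 days did not pass in the ipsilateral (adjusted p = 0.140) or the contralateral horn (adjusted p = 0.637). The ipsilateral day 5 to 16 difference was -0.75 ± 0.33 (adjusted p = 0.0714), and it passed at -0.92 without day 5 library 8-1350 (0.0286) and at -0.90 without 1-315 (0.0348). AQP7, known from fat cells, had 0 to 20 reads per library and was at 0 in 11 of 40. Its highest level, 0.531 CPM, was again in library 8-1350, and fat cell markers there (7.38 CPM) ranked 19 of 40. That sum, 5.25 to 9.98 CPM over the series, was nearly all PLIN1 (5.12 to 9.89 CPM). ADIPOQ, FABP4, LEP and CIDEC were at 0 in 27, 22, 37 and 15 libraries, so the rank says little of fat cells. AQP8 had 0 to 4 reads and was at 0 in 36 of 40. A count of 0 allows up to 3 reads, which was 0.0452 to 0.113 CPM depending on the library. A count of 0 thus does not exclude expression up to that level.

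**Figure D4:**
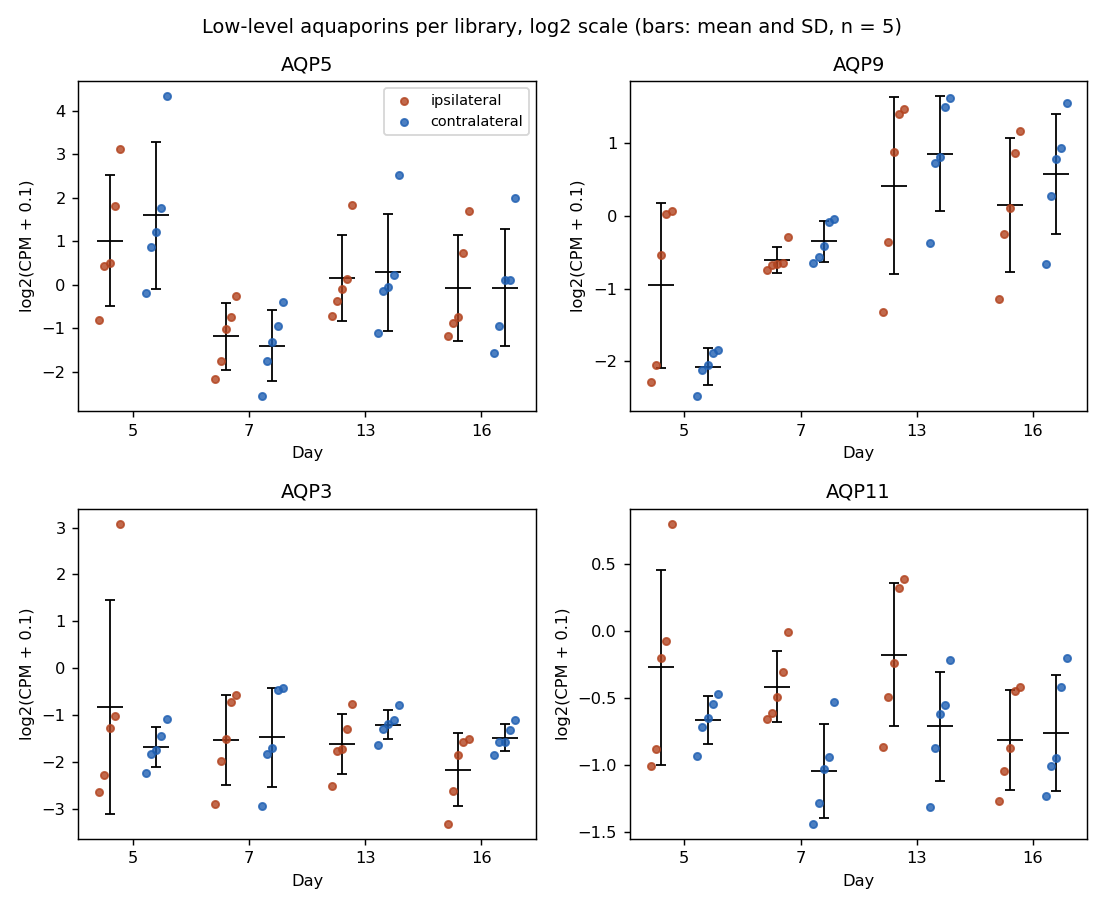
AQP5, AQP9, AQP3 and AQP11 as log2(CPM + 0.1) by day, with a point for each library, coloured by horn, and bars for the mean and SD (n = 5). AQP5 has its lowest mean on day 7 in both horns, the contralateral day 5 values of AQP9 (0.0798 to 0.179 CPM) lie below all later ones of that horn, and AQP3 has a single high library.

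The horns were compared on each day. On day 5, 2 of the 6 genes differed, where 22.7% of all genes did. On days 7, 13 and 16 edgeR called 0 of 6, where it called 11.7%, 5.72% and 4.53% of all genes, and DESeq2 and limma-voom also called 0. At an unadjusted p under 0.05 there was 1 gene on day 7, AQP11, and 0 on days 13 and 16. In the average over the 4 days, 1 of 6 differed, against 38.2% of all genes. In the interaction test, which asks whether the horn difference changed with day, edgeR called 0 of 6 and 0% of all genes, as did DESeq2 and limma-voom, although 2 members, AQP3 and AQP9, were at an unadjusted p under 0.05. A difference on day 5 is thus not shown to differ from that of the other days.

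AQP9 was higher in the ipsilateral horn on day 5, by 1.92 ± 0.59 on the log2 scale, or 3.78-fold (adjusted p = 0.0167). The 2 ranges, 0.106 to 0.941 CPM and 0.0798 to 0.179 CPM, overlapped. The call was lost without ipsilateral library 1-315 (1.65, adjusted p = 0.0560) or 7-300 (1.64, 0.0577). On days 7, 13 and 16 the difference was -0.31 ± 0.53, -0.27 ± 0.50 and -0.41 ± 0.50. AQP3 was higher in the ipsilateral horn on day 5 by 3.02 ± 0.87 (adjusted p = 0.0104), and without library 8-1350 the difference was 0.00 (adjusted p = 0.998). With the tag in the titles as a replicate block, it was 1.00 (adjusted p = 0.493).

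AQP11 was higher in the ipsilateral horn in the average of the 4 days, by 0.48 ± 0.17, or 1.39-fold (adjusted p = 0.0221). By day, the difference was 0.60 ± 0.33, 0.73 ± 0.34 and 0.66 ± 0.33 on days 5, 7 and 13 and -0.08 ± 0.34 on day 16. On day 7 the ipsilateral values were 0.535, 0.555, 0.610, 0.707 and 0.892 CPM and the contralateral values 0.269, 0.311, 0.390, 0.421 and 0.592 CPM, so that only the highest contralateral library reached the ipsilateral range. The average was not called without ipsilateral day 5 library 7-300 (0.38, adjusted p = 0.0538) or with the tag as a replicate block (0.44, adjusted p = 0.0718).

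A measure over all genes moved with the horn and also with the day. Reads in microRNA and tRNA genes made up 0.00989% to 0.0122% of the ipsilateral and 0.00820% to 0.00941% of the contralateral libraries on day 5, and the ranges were also apart on days 7 and 13. With this share as a covariate the day 5 difference of AQP9 was 1.11 (adjusted p = 0.368) and the average difference of AQP11 was 0.12 (adjusted p = 0.864). The share and the horn cannot be told apart on those days. On day 16 the share was 0.0139% to 0.0175% in the ipsilateral and 0.0113% to 0.0147% in the contralateral horn, above every day 5 value of the same horn. It was a covariate in the horn comparisons only, so the share and the day cannot be told apart between days 5 and 16. What sets the share was not tested.

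The abundant members did not pass between horns. The average ipsilateral minus contralateral difference was -0.29 ± 0.18 for AQP1 (approximate 95% interval -0.64 to 0.07) and 0.24 ± 0.22 for AQP4 (-0.19 to 0.67). AQP5 differed by -0.30 ± 0.44 on average (adjusted p = 0.645).

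**Figure D5:**
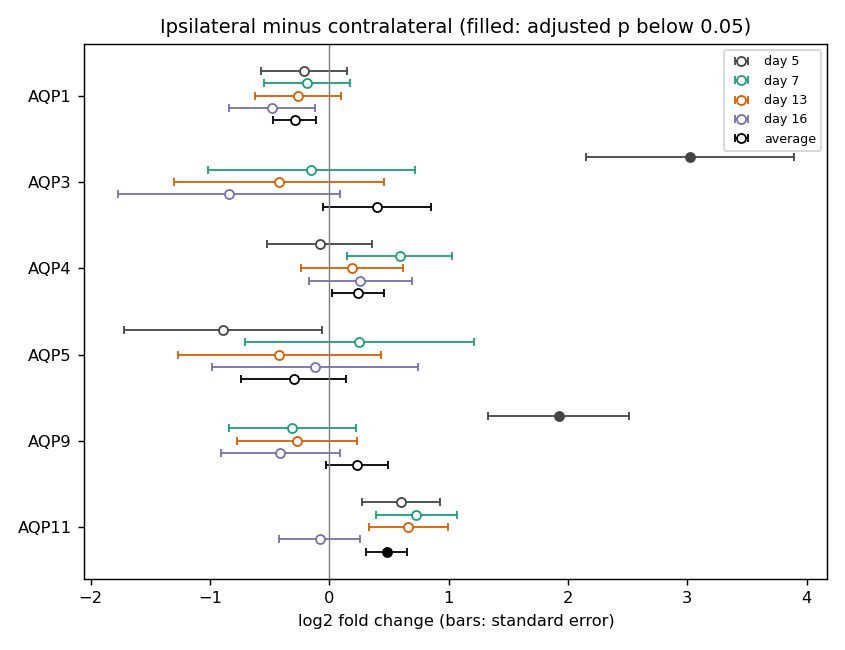
Ipsilateral minus contralateral log2 fold change (horizontal axis) of the 6 tested aquaporins on each day and in the average of the 4 days. Bars are standard errors and filled points have an adjusted p below 0.05: AQP3 and AQP9 on day 5 and AQP11 in the average.

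Other genes of water and glycerol transport were counted from lists. The shares of all genes called, given above, were 30.7% and 19.8% from day 5 to 7 and 29.8% and 32.9% from day 7 to 13 in the ipsilateral and contralateral horns. Of the other aquaporin family rows, 3 were tested. The aquaglyceroporin gene AQP10 rose from day 5 to 7 in the ipsilateral horn, by 1.30 ± 0.47 (adjusted p = 0.0314), and MIP, the lens channel gene, fell from day 7 to 13 in the contralateral horn, by 1.50 ± 0.55 (adjusted p = 0.0326). Both calls rest on few reads per library, with overlapping ranges. AQP10 had 0 to 6 reads on ipsilateral day 5 and 5 to 12 on day 7. MIP had 4 to 14 reads on contralateral day 7 and 1 to 6 on day 13.

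Ion transport, which makes the gradient that water follows, was represented by 24 genes. From day 5 to 7, 4 rose and 10 fell in the ipsilateral horn and 2 rose and 5 fell in the contralateral horn, with medians of -0.28 and -0.31 against -0.01 and 0.00 for all genes. Without library 8-1350, 4 rose and 9 fell in the ipsilateral horn. The potassium channel subunit KCNE3 fell (-2.89 and -2.97), and SCNN1A, the alpha subunit of the epithelial sodium channel, rose by 2.03 and by 1.53. SCNN1G, the gamma subunit of the same channel, went the other way and fell (-2.25 ± 0.73 and -2.81 ± 0.74). Its median was 0.39 CPM over the 40 libraries. From day 7 to 13, 5 rose and 5 fell in each horn. CFTR, the chloride channel that drives fluid secretion, rose by 4.95 ± 0.40 (adjusted p = 4.77e-11) in the ipsilateral and by 5.70 ± 0.41 (7.11e-12) in the contralateral horn, while SCNN1A, whose channel drives fluid absorption, fell (-2.67 ± 0.29 and -2.52 ± 0.29). From day 13 to 16 edgeR called 0 of the 24 in either horn.

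Tight junction proteins seal the path between cells, and 16 of their genes were tested. Of the 16, 9 rose and 2 fell from day 5 to 7 in the ipsilateral horn and 6 rose and 1 fell in the contralateral horn, with medians of 0.56 and 0.33. Without library 8-1350, 9 rose and 1 fell in the ipsilateral horn. Between days 7 and 13, 10 rose and 3 fell in each horn, with medians of 0.44 and 0.50 against 0.01 for all genes. Between days 13 and 16 edgeR called 0 in the ipsilateral horn, and 1 fell in the contralateral horn. CLDN4, which is also in the epithelium list, rose by 2.29 and by 2.68 and the junction adaptor CGN by 1.49 and by 1.54, while CLDN10 fell (-1.69 and -2.28).

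Glycerol handling was followed through 15 genes. Between days 5 and 7, 5 rose and 2 fell in the ipsilateral horn and 5 rose and 1 fell in the contralateral horn, with medians of 0.08 and 0.18. DGAT2, which makes triglyceride, rose by 3.07 ± 0.42 and by 3.14 ± 0.42, and PLIN2, the coat protein of lipid droplets, by 1.06 and by 0.93. From day 7 to 13, 6 rose and 1 fell in the ipsilateral and 5 rose and 1 fell in the contralateral horn. The medians were 0.32 and 0.23 against 0.01 for all genes. DGAT2 rose again, by 1.34 ± 0.39 and by 1.13 ± 0.39, and PLIN2 fell (-0.90 and -0.97). From day 13 to 16 only DGAT2 changed in either horn, and it fell (-2.19 and -1.99).

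Genes of osmotic stress and cell volume numbered 14. Between days 5 and 7, 2 rose and 3 fell in each horn, with medians of -0.07 and -0.03. AKR1B1, the aldose reductase that makes sorbitol and also acts in prostaglandin synthesis, rose by 1.88 and by 1.58. The volume-regulated anion channel subunits LRRC8C (-0.95 and -0.61) and LRRC8D (-0.84 and -0.56) and the amino acid transporter SLC38A2 (-0.53 and -0.37) fell. From day 7 to 13, 2 rose and 6 fell in the ipsilateral and 3 rose and 6 fell in the contralateral horn, with medians of -0.19 and -0.14 against 0.01 for all genes. The betaine transporter SLC6A12 fell (-3.80 ± 0.79 and -3.23 ± 0.74), as did the taurine transporter SLC6A6 (-1.01 and -1.09). TRPV4, a channel that opens on cell swelling, fell too (-1.08 and -1.38).

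The genes most like each member were taken by Pearson's r of log2 CPM over the 40 libraries, which share the 4 days and so carry any day pattern. AQP4 had the closest matches: LOC101905316 (0.843), LOC101905185 (0.840), AKAP14 (0.831), GRAMD1C (0.826) and MGAT4C (0.824). AQP9 was nearest to FBXL2 (0.776), ZFR2 (0.760) and the clock output gene DBP (0.746). For AQP5 the nearest were APIP (0.695) and the matrix gene LTBP1 (0.687), and for AQP1 THBD (0.689), which encodes the endothelial protein thrombomodulin. AQP3 matched DAPK1 at 0.745, where Spearman's rho was 0.548, and without library 8-1350 r was 0.477 over 39 libraries. AQP11 reached at most 0.575, with C22H3orf20. These values describe likeness over these libraries and were not tested.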

How the data were processed

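Per the submitters' processing notes, reads were checked with FastQC, aligned with HISAT2 to bovine build UMD3.1 and counted with featureCounts; their versions are not given in the sources used here. Endometrial RNA was DNase-treated and made into stranded mRNA libraries, per the labels' protocols. The deposited values are whole-number read counts per gene. A mitochondrial genome row (0.0812% to 0.578% of reads) was left out. RefSeq symbols of ARS-UCD2.0 matched 8 of 8 members. Counts were tested in edgeR 4.0.16 (R 4.3.3; quasi-likelihood, TMM scaling, filterByExpr, 8 day-by-horn groups, 40 libraries) with Benjamini-Hochberg adjustment over 20356 genes. CPM use TMM-scaled totals and are not corrected for gene length. Standard errors in edgeR were derived as the absolute log2 fold change over the square root of F. They are approximate, as are intervals made from them, and calls rest on the adjusted p. Alternatives were DESeq2 1.42.0, limma-voom 3.58.1, RLE scaling, no filter, subsets, a tag block, a covariate and each library left out; days 5 against 16, and list counts and likeness without library 8-1350, were added after seeing the data. The correlation of deviations between same-tag libraries passed 0.1 in 5 of 20 cases, so tags were not used as pairs. By the design text both horns came from the same heifers, and the horn p-values treat them as independent. The design text gives 5 heifers per day, taken here as 5 animals per group. Named genes were all members, up to 4 called genes per list and day step with the largest change, and the 5 genes most like each member; the text gives some of these. Members and lists were chosen with earlier results of these data known.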

Additional observations from a re-analysis of the deposited data

Results flagged for a closer look

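Dixon's test for a highest or lowest library that lies apart was run in 48 groups of 5 libraries, 8 groups for each of 6 genes. In 7 of them the gap was above the 95% critical value. For normally distributed values chance gives about 1 in 20 groups. The test used CPM without logs, where that rate was not checked, so the 7 are not read as an excess. AQP3 was at 8.36 CPM in ipsilateral day 5 library 8-1350, where the next value was 0.392 CPM. AQP4 was at 20.6 CPM in ipsilateral day 5 library 3-175, the deepest of the series, below the next value of 54.2 CPM. AQP5 was high in 4 libraries: 20.2 CPM in contralateral day 5 library 4-184, 3.49 CPM in ipsilateral day 13 library 6-203, 5.68 CPM in contralateral day 13 library 5-167 and 3.86 CPM in contralateral day 16 library 2-068. AQP9 was at 0.713 CPM, or 20 reads, in ipsilateral day 7 library 2-1337, where the next value was 0.537 CPM.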

How the results depend on the processing

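Of 1000 values with 1 library left out, 934 kept their direction and side of the threshold, 65 fell short of it in the same direction, and 1 reversed (AQP3 from day 5 to 7 in the ipsilateral horn, -2.93 to 0.42). Each of the 40 libraries was left out for every called result, including libraries outside the groups compared. Those act only through the shared filter, scaling and spread, so the share kept does not measure how stable the calls were. Of 128 values of called genes under the other alternatives, 99 were kept, 29 fell short and 0 reversed. The number of the 6 genes called ranged as follows with 1 library left out: over the 4 days 2 to 4 in each horn, from day 5 to 7 ipsilateral 0 to 2, from day 7 to 13 ipsilateral 0 to 1 and contralateral 0 to 3, from day 5 to 16 2 to 4 in each horn, between horns on day 5 1 to 2 and in the average 0 to 1. Limma-voom called 1 over the 4 days in the ipsilateral and 2 in the contralateral horn, 0 from day 5 to 7 ipsilateral, 0 from day 7 to 13 in either horn, 1 and 2 from day 5 to 16, and 0 between horns on day 5; the cause was not tested. With the libraries of 1 horn, 1 was called from day 5 to 7 and 0 from day 7 to 13 in the ipsilateral horn. With the libraries of day 5 alone, 0 were called between horns, since AQP3 and AQP9 did not pass its filter. The tag as a replicate block left 1 called between horns on day 5 and 0 in the average, and so did the microRNA and tRNA share as a covariate; the cause was not tested. Each ipsilateral library correlated best with its own tag in 5 of 20 cases. Over all genes, counts moved by over 1.5 times in these cases. From day 13 to 16, 208 genes were called in the ipsilateral horn (438 by DESeq2, 88 with that horn alone) and 271 in the contralateral horn (526 by DESeq2). Between horns, 4628 were called on day 5 (2884 with that day alone, 2240 with the covariate), 2386 on day 7 (231 with the covariate), 1165 on day 13 (1799 by DESeq2, 742 with that day alone, 110 with the covariate), 922 on day 16 (1435 by DESeq2, 258 with the covariate) and 7768 in the average (2059 with the covariate). On day 13, 921 genes were higher and 244 lower in the ipsilateral horn with TMM, and 814 and 393 with RLE scaling. Read counts of 3 to 26 limit AQP9 in the contralateral horn on days 5 and 7, and AQP7 and AQP8 were too low to test.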
